A study of Mus musculus with 2 samples.

Results

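Tbx21, Eomes, Rora, Gata3, Zbtb16, Foxp3, Ikzf2 and Runx3 encode transcription factors that set or maintain the fates of natural killer (NK) cells, innate lymphoid cells and T cells. They were taken by gene symbol, 8 of the 27998 genes listed, and read in lymphoid cells of mouse liver. The cells were liver non-parenchymal cells, obtained by perfusion and a density gradient and profiled with droplet 3′ single-cell RNA sequencing. One library came from mice of genotype PKM2ΔMAC (ΔMAC below), named for a macrophage deletion of the pyruvate kinase isoform PKM2, and 1 library came from floxed PKM2FL/FL mice (FL/FL below). Both groups had been fed the MCD diet, a chow without methionine and choline that produces steatohepatitis, for 8 weeks. The labels do not state the Cre driver, or the age, strain and number of the mice. With 1 library per genotype there is no replicate check, so no p-value is given, and every interval below is a 95% interval for counting error only.

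NK cells and liver type 1 innate lymphoid cells (ILC1) share T-bet, the product of Tbx21, while Eomesodermin, the product of Eomes, marks conventional NK cells and is low or absent in ILC1. RORα, from Rora, serves type 2 and type 3 innate lymphoid cells and interleukin-17-producing T cells. GATA3 serves T cells of the type 2 helper kind and T cell development at large, and PLZF, from Zbtb16, drives the innate programme of NKT cells, mucosal-associated T cells and some γδ T cells. FoxP3 defines regulatory T cells, Helios, from Ikzf2, is expressed in many of them and in several innate subsets, and RUNX3 serves CD8 T cells and cytotoxic lymphocytes.

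The ΔMAC library held 8949 barcodes and 43134027 UMIs (unique molecular identifiers, 1 per captured transcript), and the FL/FL library held 10054 barcodes and 54519921 UMIs. After filters, 8549 ΔMAC cells and 9510 FL/FL cells were kept, with 14 barcodes shared between the libraries. The PKM2 transcript itself was not resolved, because a 3′ count per gene does not split the isoforms of Pkm. In cells with monocyte or macrophage markers Pkm stood at 279 CPM (UMIs of a gene per 1000000 UMIs of the gate) in ΔMAC and 509 CPM in FL/FL, and in Cd3+ NKm- cells it stood at 170 CPM in ΔMAC and 241 CPM in FL/FL.

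Lymphoid cells were sorted by raw UMIs into 3 gates that do not overlap. Cd3 means at least 1 UMI of Cd3d, Cd3e or Cd3g, and NKm means at least 1 UMI of the NK receptor genes Ncr1 or Klrb1c. Cd3- NKm+ held 1957 ΔMAC cells and 2565 FL/FL cells, Cd3+ NKm+ held 440 ΔMAC and 931 FL/FL cells, and Cd3+ NKm- held 2036 ΔMAC cells and 2166 FL/FL cells. The gates were checked against markers that did not define them. Gzma was at 2105 CPM in ΔMAC and 2101 CPM in FL/FL in the Cd3- NKm+ gate, against 22.2 CPM in ΔMAC and 41.9 CPM in FL/FL in the Cd3+ NKm- gate. The NK receptor gene Klrk1 was at 918 CPM and 828 CPM in the Cd3- NKm+ gate, against 60.6 CPM and 93.7 CPM in the Cd3+ NKm- gate, ΔMAC before FL/FL. Lat, an adaptor of the T cell receptor, was at 305 CPM in ΔMAC and 304 CPM in FL/FL in the Cd3+ NKm- gate, and at 51.5 CPM and 57.1 CPM in the Cd3- NKm+ gate. Smaller subgates are named by the marker that defines them, and a cell without a UMI of a marker may still carry its transcript.

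Positions of the 8 genes were read from the GENCODE annotation of GRCm38, and 6 of them had promoters in the RefSeq table of build GRCm38.p6. Tbx21 lies at chr11:97098071-97115331 (minus strand), Eomes at chr9:118478212-118486132 (plus), Rora at chr9:68653786-69388246 (plus) and Gata3 at chr2:9857078-9890034 (minus). Zbtb16 lies at chr9:48654297-48836222 (minus), Foxp3 at chrX:7573644-7595245 (plus), Ikzf2 at chr1:69531214-69687245 (minus) and Runx3 at chr4:135120652-135177990 (plus). Foxp3 overlaps Ccdc22 and Ppp1r3f on the other strand. The 3 gates held 71 UMIs of Foxp3 in ΔMAC and 228 in FL/FL, beside 232 and 321 UMIs of Ccdc22 and 67 and 114 of Ppp1r3f, ΔMAC given before FL/FL.

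The promoters below are the 250 bases before a transcript start that RefSeq lists, on the gene's strand. Such a start can differ from the end of the GENCODE gene, and the Foxp3 stretch lies inside the gene's span given above. Tbx21 and Eomes are shown because their levels set the NK gates apart from the T cell gate, and Runx3 and Foxp3 because they alone held a searched motif. Capitals mark the motif letters. The Runx3 stretch is the distal of the 2 listed promoters (chr4:135120395-135120644), Tbx21 is at chr11:97115332-97115581, Eomes at chr9:118477939-118478188 and the Foxp3 stretch, the second listed, at chrX:7580233-7580482.
Tbx21: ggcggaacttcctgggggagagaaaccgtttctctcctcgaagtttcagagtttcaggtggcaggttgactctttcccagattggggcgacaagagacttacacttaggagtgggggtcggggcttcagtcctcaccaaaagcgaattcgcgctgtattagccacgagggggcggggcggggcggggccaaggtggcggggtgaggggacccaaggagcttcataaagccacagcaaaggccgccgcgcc
Eomes: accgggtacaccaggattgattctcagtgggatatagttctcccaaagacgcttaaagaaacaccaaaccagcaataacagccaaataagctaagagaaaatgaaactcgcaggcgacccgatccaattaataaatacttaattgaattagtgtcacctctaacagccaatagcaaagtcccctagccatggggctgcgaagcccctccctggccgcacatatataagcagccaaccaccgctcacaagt
Runx3: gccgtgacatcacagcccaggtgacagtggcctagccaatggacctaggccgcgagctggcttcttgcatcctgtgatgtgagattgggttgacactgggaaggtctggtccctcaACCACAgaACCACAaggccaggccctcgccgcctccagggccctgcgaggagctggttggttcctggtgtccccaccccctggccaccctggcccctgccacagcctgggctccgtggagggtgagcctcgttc
Foxp3: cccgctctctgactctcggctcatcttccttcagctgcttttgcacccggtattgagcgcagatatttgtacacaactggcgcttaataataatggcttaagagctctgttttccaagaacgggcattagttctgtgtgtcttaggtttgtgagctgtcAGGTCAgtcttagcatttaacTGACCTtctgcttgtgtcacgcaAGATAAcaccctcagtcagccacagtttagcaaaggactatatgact

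A set of 5 short motifs was searched on both strands. TGTGGT, the RUNX letters, stood in 14.0% of 32851 promoters of the same length. AGGTGT, the T-box letters, stood in 11.8%. AGATAA, the GATA letters, stood in 9.99%. AGGTCA, the ROR letters, stood in 14.0%, and TGTTTAC, the forkhead letters, stood in 3.17%. Runx3 promoter 1 held TGTGGT on the reverse strand, 134 and 126 bases before the start. Foxp3 promoter 2 held AGATAA 47 bases before the start and AGGTCA at 91 and 70 bases before the start. No other listed promoter of the members held any of the 5, which says only that these letters are not in this window. GC content was 46.4% for the Eomes stretch, 60.8% for Tbx21 and 65.2% for the Runx3 stretch shown, against a median of 52.4% over all promoters (quartiles 45.2% and 61.2%).

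Most transcripts of these genes lay in the 3 gates. Tbx21 had 95.8% of its UMIs there in ΔMAC and 95.8% in FL/FL, Eomes 96.1% and 95.7%, and Foxp3 100% and 99.1%. Runx3 had 77.2% in ΔMAC and 80.5% in FL/FL, and Zbtb16 77.2% and 84.4%. Outside the gates, Runx3 stood at 353 CPM in ΔMAC and 379 CPM in FL/FL in plasmacytoid dendritic cells. Zbtb16 stood at 24.1 CPM in ΔMAC and 33.0 CPM in FL/FL in neutrophils, and at 71.7 CPM and 135 CPM in 75 ΔMAC and 40 FL/FL stromal cells, where Rora reached 165 CPM and 211 CPM. Ikzf2 was at 363 CPM in ΔMAC and 302 CPM in FL/FL in basophils or mast cells, from 17 and 26 cells.

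**Figure D1:**
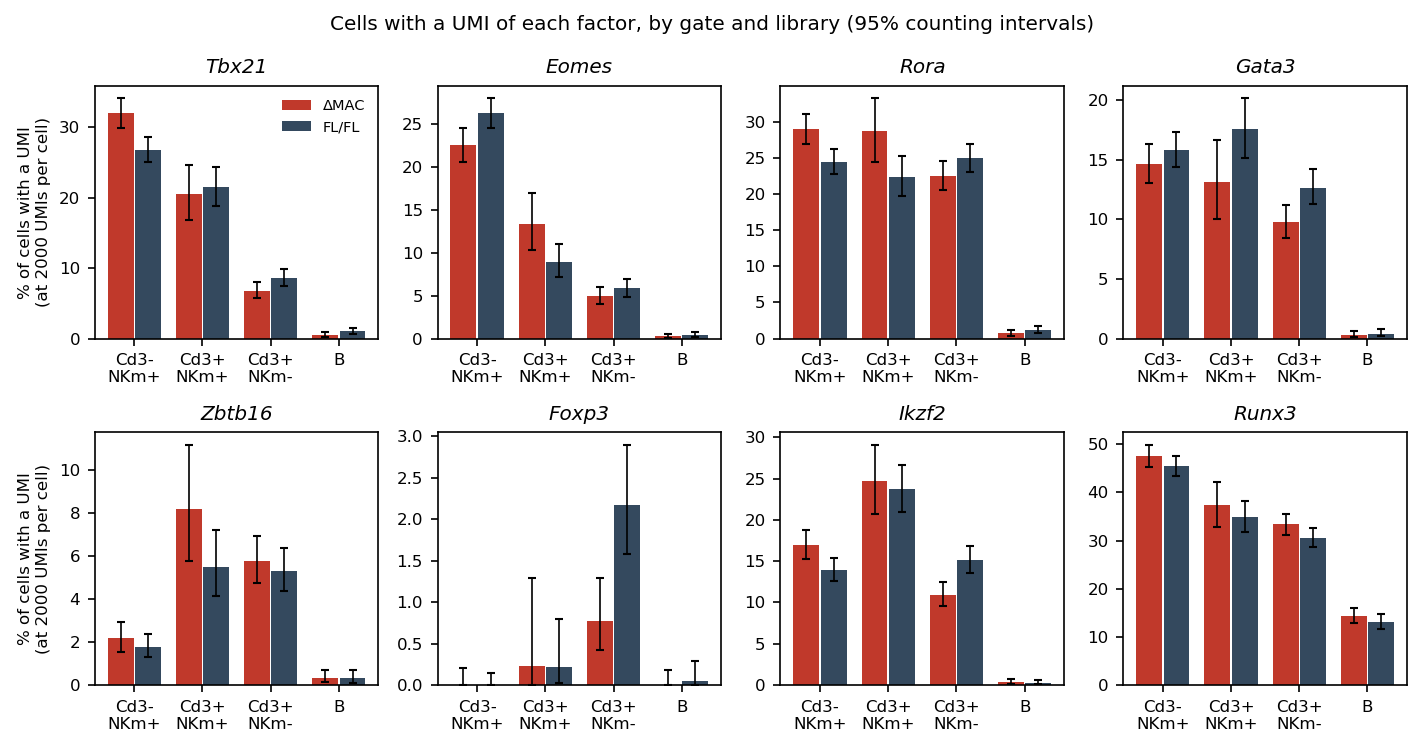
Percent of cells with at least 1 UMI of each factor after every cell was thinned to 2000 UMIs, by gate (x axis) and library (ΔMAC left bar, FL/FL right bar), with B cells as background and bars for 95% counting intervals. Tbx21 was seen in 32.0% of ΔMAC and 26.9% of FL/FL Cd3- NKm+ cells, against 6.81% of ΔMAC and 8.62% of FL/FL Cd3+ NKm- cells.

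To compare shares of cells across depths, each cell was thinned to 2000 UMIs and shallower cells were left out, which kept 1841 ΔMAC and 2476 FL/FL Cd3- NKm+ cells, 428 and 907 Cd3+ NKm+ cells, and 1821 and 2031 Cd3+ NKm- cells. Of the 8 genes, 7 were detected in Cd3- NKm+ cells above the B cell share at this depth. The B cell share was 0.247 to 0.742% in ΔMAC and 0.262 to 1.15% in FL/FL for Tbx21, Eomes, Rora, Gata3, Zbtb16 and Ikzf2. For Foxp3 it was 0 in ΔMAC and 0.0525% in FL/FL, 1 cell. Runx3 was present in 14.3% of ΔMAC and 13.1% of FL/FL B cells, so neutrophils, at 1.30% and 3.01%, serve as its background. It was not confined to lymphoid cells. Conventional dendritic cells held it in 35.6% in ΔMAC and 35.6% in FL/FL, and monocytes or macrophages in 25.9% and 24.3%. Zbtb16 was present in 4.33% of ΔMAC and 5.76% of FL/FL neutrophils.

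Tbx21 and Eomes set the NK gates apart. Tbx21 was at 192 CPM (184 to 201) in ΔMAC and 163 CPM (156 to 169) in FL/FL in Cd3- NKm+ cells, against 37.8 CPM and 49.0 CPM in Cd3+ NKm- cells. The ratio between these gates was 5.09 (4.59 to 5.65) in ΔMAC and 3.32 (3.04 to 3.64) in FL/FL. Eomes was at 165 CPM in ΔMAC and 177 CPM in FL/FL in Cd3- NKm+ cells, against 35 CPM and 37.3 CPM in Cd3+ NKm- cells, a ratio of 4.72 (4.24 to 5.27) and 4.74 (4.29 to 5.24). Cd3+ NKm+ cells lay between, with Tbx21 at 131 CPM in ΔMAC and 122 CPM in FL/FL and Eomes at 89.6 CPM and 71.7 CPM.

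Without thinning, Tbx21 was detected in 55.4% of ΔMAC and 52.2% of FL/FL Cd3- NKm+ cells and Eomes in 35.8% and 41.9%. Runx3 was the most widely detected of the 8 in every gate and library. It reached 71.6% of ΔMAC and 72.1% of FL/FL Cd3- NKm+ cells unthinned, 47.6% and 45.5% thinned, and 33.4% and 30.6% of Cd3+ NKm- cells thinned. Its level in CPM was 1.63 times as high in Cd3- NKm+ as in Cd3+ NKm- cells in ΔMAC (1.55 to 1.71) and 1.57 times in FL/FL (1.49 to 1.64).

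Zbtb16 and Foxp3 went the other way between these gates. Zbtb16 was at 9.55 CPM in ΔMAC and 10.2 CPM in FL/FL in Cd3- NKm+ cells, against 28.2 CPM and 28.1 CPM in Cd3+ NKm- cells, a ratio of 0.339 (0.268 to 0.424) and 0.363 (0.298 to 0.441). Foxp3 had 0 UMIs in 1957 ΔMAC cells and 2 UMIs in 2565 FL/FL cells of the Cd3- NKm+ gate. The count of 0 in ΔMAC was bounded at 3 UMIs, or 0.284 CPM. Foxp3 in Cd3+ NKm- cells was at 5.37 CPM in ΔMAC and 16.7 CPM in FL/FL.

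Rora, Gata3 and Ikzf2 were spread over all 3 gates. Rora was at 248 CPM in ΔMAC and 219 CPM in FL/FL in Cd3- NKm+ cells, 237 CPM and 163 CPM in Cd3+ NKm+ cells, and 196 CPM and 217 CPM in Cd3+ NKm- cells. Gata3 was at 85.8 CPM and 89.2 CPM, 74.9 CPM and 106 CPM, and 51.0 CPM and 76.0 CPM in the same gates, ΔMAC before FL/FL each time. Ikzf2 was highest in Cd3+ NKm+ cells of both libraries, at 202 CPM in ΔMAC and 189 CPM in FL/FL. Its other gates kept a different order in the libraries: the ratio of Cd3- NKm+ over Cd3+ NKm- was 1.53 (1.41 to 1.66) in ΔMAC and 0.712 (0.664 to 0.764) in FL/FL.

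By the 1.5-fold rule, 5 of the 8 genes were higher and 2 lower in Cd3- NKm+ than in Cd3+ NKm- cells of ΔMAC, where 18.9% of all 11596 genes tested were higher and 10.7% lower. In FL/FL 3 were higher and 2 lower, where 15.8% of 12090 genes were higher and 11.0% lower. Between Cd3+ NKm+ and Cd3+ NKm- cells, 3 were higher and 1 lower in ΔMAC (12.6% and 9.65% of genes) and 2 higher and 1 lower in FL/FL (11.2% and 9.36%). The median log2 ratio of Cd3- NKm+ over Cd3+ NKm- was 0.66 for the 8 genes and 0.20 for all genes in ΔMAC, and 0.12 and 0.14 in FL/FL.

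**Figure D2:**
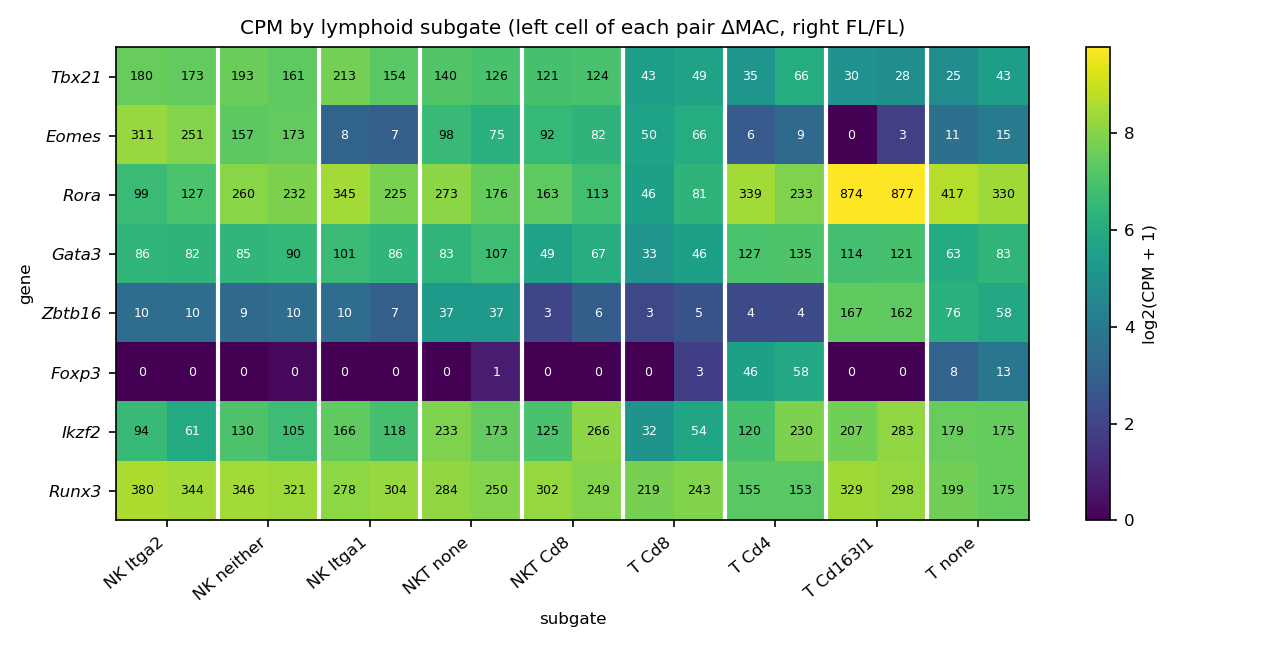
Level of each factor (colour, log2 of CPM + 1, with CPM printed in each cell) in lymphoid subgates of at least 50 cells per library, ΔMAC in the left and FL/FL in the right column of each pair. Rora and Zbtb16 peak in Cd3+ cells with Cd163l1, Eomes in NK cells with Itga2 and Foxp3 in cells with Cd4.

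Subgates within the gates showed how the factors divide. The gate of Cd3+ NKm- cells with Cd163l1, a scavenger receptor of interleukin-17-producing γδ T cells, held 94 ΔMAC and 80 FL/FL cells. It had the highest Rora level in both libraries among subgates of at least 50 cells, 874 CPM (792 to 963) in ΔMAC and 877 CPM (787 to 976) in FL/FL, and the lowest was the Cd8 subgate at 46.2 CPM in ΔMAC and 81.5 CPM in FL/FL. It also had the highest Zbtb16 level, 167 CPM (132 to 208) in ΔMAC and 162 CPM (125 to 207) in FL/FL. Next came Cd3+ NKm- cells with none of Cd4, Cd8 or Cd163l1, at 75.8 CPM in ΔMAC and 58.5 CPM in FL/FL. A mean of 2.31 of the 8 genes was detected per thinned cell in ΔMAC and 2.28 in FL/FL in the Cd163l1 subgate, against 0.949 and 1.05 over all Cd3+ NKm- cells.

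Eomes followed the NK integrins. In Cd3- NKm+ cells with Itga2 (the CD49b of conventional NK cells) it was at 311 CPM (276 to 348) in ΔMAC and 251 CPM (228 to 276) in FL/FL. In Cd3- NKm+ cells with Itga1 (the CD49a of ILC1) it was at 7.79 CPM (1.61 to 22.8) and 6.81 CPM (1.40 to 19.9), from 3 UMIs in each library, over 56 ΔMAC and 63 FL/FL cells. Tbx21 did not separate these subgates: it was at 180 CPM with Itga2 and 213 CPM with Itga1 in ΔMAC, and at 173 CPM and 154 CPM in FL/FL, with overlapping intervals. Rora was higher in the Itga1 subgate in both libraries, 345 CPM against 99.4 CPM with Itga2 in ΔMAC and 225 CPM against 127 CPM in FL/FL.

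The orders in this paragraph are among lymphoid subgates with at least 50 cells in each library. Some smaller subgates stood higher but were not ranked. Foxp3 was highest in Cd3+ NKm- cells with Cd4, at 46.4 CPM (33.0 to 63.5) in ΔMAC and 58.4 CPM (47.9 to 70.5) in FL/FL. The Cd4 subgate also led for Gata3, at 127 CPM in ΔMAC and 135 CPM in FL/FL, though its interval overlapped that of the Cd163l1 subgate in each library. Cd8 T cells had the lowest Gata3 level, 33.2 CPM in ΔMAC, with an interval that overlapped the next, and 45.9 CPM in FL/FL, with one that did not. Runx3 had its highest subgate level with Itga2, 380 CPM in ΔMAC and 344 CPM in FL/FL, and its lowest with Cd4, 155 CPM and 153 CPM, and each of these intervals overlapped that of the next subgate. For Ikzf2 the order of these subgates differed between the libraries. Cd3+ NKm+ cells with neither Cd4 nor Cd8 led in ΔMAC at 233 CPM, and the Cd163l1 subgate led in FL/FL at 283 CPM. Each had an interval that overlapped the next.

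**Figure D3:**
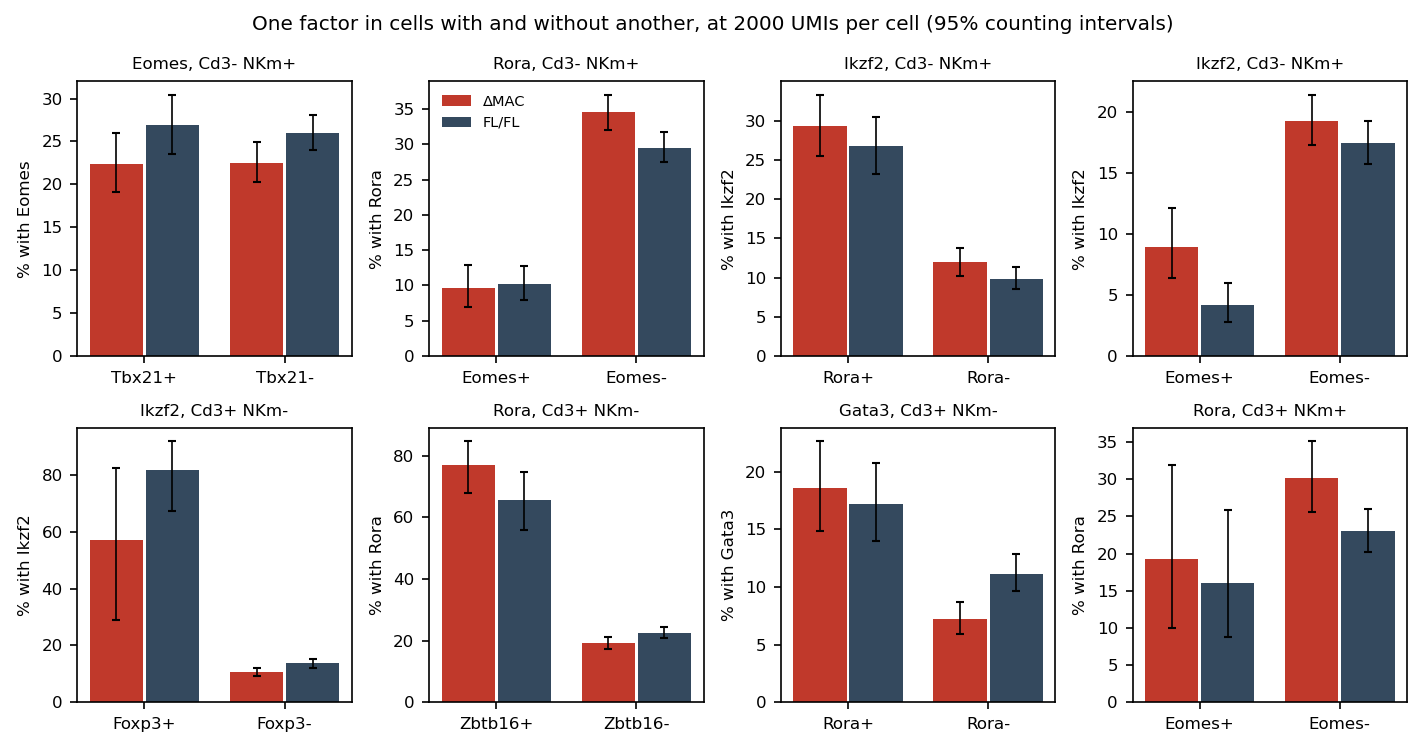
Percent of thinned cells with the factor named on the y axis, in cells with (+) and without (-) another factor on the x axis, ΔMAC left and FL/FL right of each pair of bars, with 95% counting intervals. Ikzf2 was found in 8 of 14 ΔMAC and 36 of 44 FL/FL Foxp3+ cells of the Cd3+ NKm- gate.

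The 28 pairs were read in thinned cells, and 8 of them were listed to be described first. The pairs of Rora with Eomes, Ikzf2 and Zbtb16, and of Eomes with Ikzf2, were not among those 8. Among Cd3- NKm+ cells, Tbx21 and Eomes were seen together in 132 ΔMAC and 179 FL/FL cells. Eomes was present in 22.4% of Tbx21+ and 22.5% of Tbx21- cells in ΔMAC, a difference of -0.113 points (-4.21 to 4.14), and in 26.9% and 26.0% in FL/FL, a difference of 0.965 points (-2.97 to 5.04). Both intervals include 0, so no difference was detectable in that gate at this depth. For Cd3+ NKm- cells Eomes was in 13 of 124 Tbx21+ cells of ΔMAC (10.5%) against 4.54% of Tbx21- cells, a difference of 5.95 points (1.04 to 12.8), and in 19 of 175 in FL/FL (10.9%) against 5.39%, a difference of 5.47 points (1.13 to 11.1). The libraries differed in sign among Cd3+ NKm+ cells, with a difference of 11.8 points (2.75 to 22.5) in ΔMAC and -0.924 points (-5.10 to 4.26) in FL/FL.

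In Cd3- NKm+ cells Rora was found less often beside Eomes. It was in 9.66% of Eomes+ cells (6.99 to 12.9) against 34.5% of Eomes- cells in ΔMAC, and in 10.2% (7.95 to 12.8) against 29.6% in FL/FL. Among Cd3+ NKm+ cells it was in 11 of 57 Eomes+ cells (19.3%, 10.0 to 31.9) against 30.2% of Eomes- cells in ΔMAC, and in 13 of 81 (16.0%, 8.83 to 25.9) against 23.0% in FL/FL, where the intervals include the shares in Eomes- cells. Ikzf2 was in 8.94% of Eomes+ and 19.3% of Eomes- Cd3- NKm+ cells of ΔMAC, a difference of -10.3 points (-13.7 to -6.58), and in 4.16% and 17.5% in FL/FL, a difference of -13.3 points (-15.6 to -10.8). Rora and Ikzf2 were in turn seen together more often. Ikzf2 was in 29.3% of Rora+ and 11.9% of Rora- cells in ΔMAC, a difference of 17.3 points (13.1 to 21.7), and in 26.7% and 9.84% in FL/FL, a difference of 16.9 points (13.1 to 20.8).

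In Cd3+ NKm- cells Ikzf2 was seen more often beside Foxp3, and Rora more often beside Zbtb16. Ikzf2 was found in 57.1% of Foxp3+ cells (28.9 to 82.3) against 10.6% of the rest in ΔMAC, and in 81.8% (67.3 to 91.8) against 13.7% in FL/FL. Without thinning it was in 17 of 24 Foxp3+ ΔMAC cells and 63 of 66 FL/FL cells. Rora was found in 77.1% of Zbtb16+ cells (67.9 to 84.8) against 19.2% of the rest in ΔMAC, and in 65.7% (56.0 to 74.6) against 22.6% in FL/FL. Gata3 was found in 16 of 44 Foxp3+ cells of FL/FL (36.4%, 22.4 to 52.2), against 12.1% of the rest. In ΔMAC it was found in 2 of 14 Foxp3+ cells (14.3%, 1.78 to 42.8), whose interval includes the 9.74% of the rest.

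Gata3 and Rora also overlapped in this gate, with Gata3 in 18.5% of Rora+ and 7.23% of Rora- cells in ΔMAC (difference 11.3 points, 7.37 to 15.6) and in 17.2% and 11.1% in FL/FL (6.05 points, 2.44 to 9.94). Among thinned Cd3+ NKm- cells, Eomes and Zbtb16 were seen together in 1 ΔMAC and 1 FL/FL cell, of 90 Eomes+ cells in ΔMAC and 119 in FL/FL, which allows a Zbtb16 share of up to 6.04% and 4.59% at the upper interval bound. The Zbtb16 share over the whole gate was 5.77% in ΔMAC, below that bound, and 5.32% in FL/FL, above it. Zbtb16 was found in 0 of 14 Foxp3+ cells in ΔMAC (up to 23.2%) and 1 of 44 in FL/FL (2.27%), and Eomes in 0 of 14 (up to 23.2%) and 0 of 44 (up to 8.04%). These intervals include the shares in Foxp3- cells, which were 5.81% and 5.39% for Zbtb16 and 4.98% and 5.99% for Eomes, so no difference was detectable for either pair. Zbtb16+ Cd3+ NKm- cells held Gata3 more often than the rest, by 17.9 points (9.64 to 27.5) in ΔMAC and 8.15 points (0.842 to 17.1) in FL/FL. In Cd3- NKm+ cells the intervals for this pair included 0 in both libraries. In Cd3+ NKm+ cells, Gata3 was found in 3 of 35 Zbtb16+ cells (8.57%) against 13.5% of the rest in ΔMAC and in 8 of 50 (16.0%) against 17.6% in FL/FL, with wide intervals on these few cells. Tbx21 was commoner in Runx3+ Cd3+ NKm- cells, by 3.11 points (0.518 to 5.95) in ΔMAC and 4.73 (1.88 to 7.82) in FL/FL. For that pair the intervals in the other gates included 0. Eomes was commoner beside Runx3 in every gate of FL/FL, by 3.84 to 8.09 points with intervals clear of 0. In ΔMAC every interval for Runx3 and Eomes included 0. So did the intervals for Zbtb16 and Tbx21 in every gate of both libraries.

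**Figure D4:**
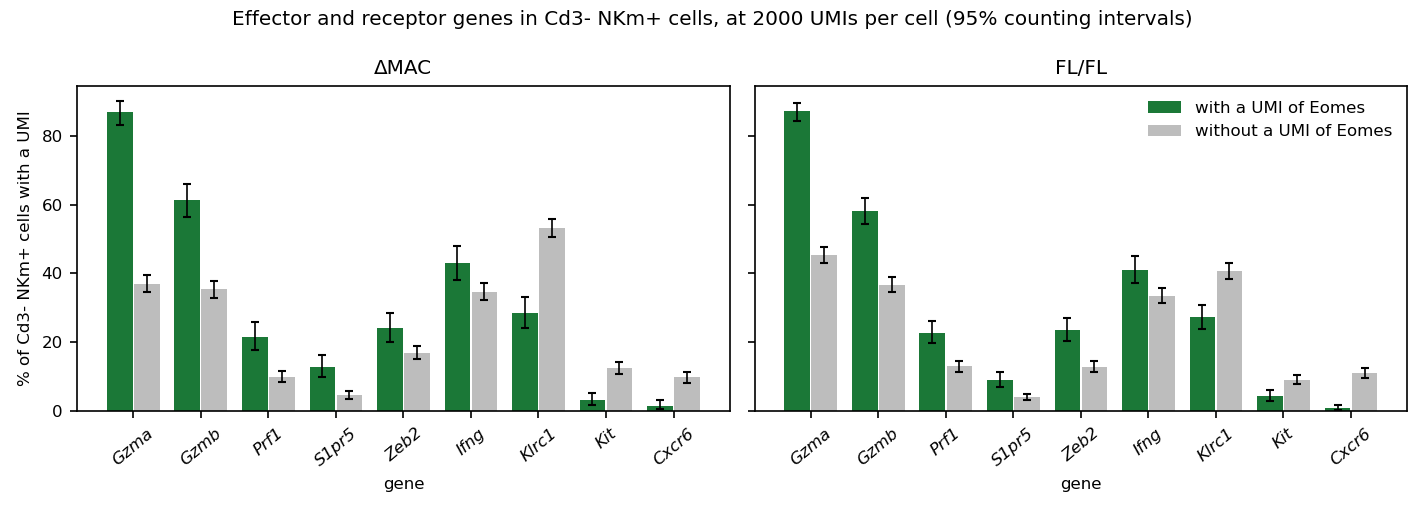
Percent of thinned Cd3- NKm+ cells with a UMI of each gene (x axis), in cells with (green) and without (grey) a UMI of Eomes, ΔMAC left panel and FL/FL right panel, with 95% counting intervals. Gzma was found in 87.0% of Eomes+ ΔMAC cells and 87.2% of Eomes+ FL/FL cells.

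Genes known to go with each factor were then read in cells with and without it. Gzma, a granzyme of cytotoxic granules, was found in 87.0% of Eomes+ Cd3- NKm+ cells against 37.1% of Eomes- cells in ΔMAC, and in 87.2% against 45.3% in FL/FL. Prf1, perforin, was in 21.5% against 9.95% in ΔMAC and in 22.8% against 13.0% in FL/FL. S1pr5, an egress receptor of mature NK cells, was in 12.8% against 4.48% in ΔMAC and 8.94% against 4.05% in FL/FL. Cxcr6, a chemokine receptor of tissue-resident lymphocytes, was the reverse and was found in 1.45% of Eomes+ and 9.74% of Eomes- cells in ΔMAC and 0.770% and 11.0% in FL/FL.

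Rora+ Cd3- NKm+ cells carried Il7r, the interleukin-7 receptor, in 66.6% against 30.2% of Rora- cells in ΔMAC and in 62.9% against 25.6% in FL/FL. Among Cd3+ NKm- cells, Il17a was found in 9.76% of Rora+ against 0.709% of Rora- cells in ΔMAC and in 7.91% against 0.656% in FL/FL. Zbtb16+ cells there carried Icos in 64.8% against 23.2% in ΔMAC and in 61.1% against 24.2% in FL/FL, and Il18r1 in 55.2% against 25.4% and 59.3% against 23.5%. Ctla4, a regulatory T cell receptor, was in all 14 Foxp3+ cells against 7.14% of the rest in ΔMAC and in 68.2% against 11.6% in FL/FL. Ifng was found in 27.4% of Tbx21+ against 7.66% of Tbx21- cells in ΔMAC and in 30.9% against 14.3% in FL/FL. These genes share the cells and depth of the factor that selects them.

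**Figure D5:**
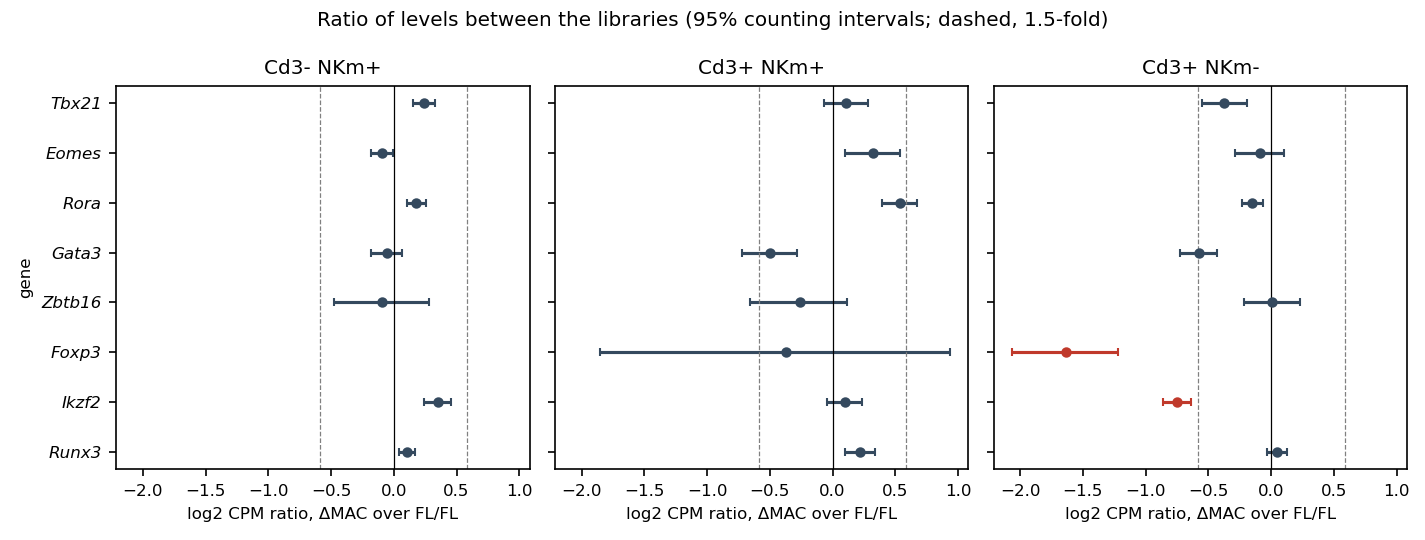
Ratio of each factor's level (log2 CPM, ΔMAC over FL/FL) in 3 gates, with 95% counting intervals, dashed lines at 1.5-fold and red for ratios past it. Foxp3 and Ikzf2 in Cd3+ NKm- cells are the points past the line, at -1.63 and -0.75.

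Between the libraries, Foxp3 and Ikzf2 in Cd3+ NKm- cells passed the 1.5-fold rule, both lower in ΔMAC, and 13.2% of the 11757 genes tested in that gate were as far lower. Foxp3 had 64 UMIs in 24 ΔMAC cells and 206 UMIs in 66 FL/FL cells, a ratio of 0.322 (0.239 to 0.428). Ikzf2 was at 83.7 CPM (78.6 to 89.1) in ΔMAC and 141 CPM (134 to 148) in FL/FL, a ratio of 0.594 (0.549 to 0.642). Gata3, at a ratio of 0.670 (0.604 to 0.743), lay just inside the rule, and passed it without doublet removal (log2 ratio -0.61), with a gate at 2 UMIs (-0.66) and without cells holding genes of other cell types (-0.62). Tbx21, at -0.37, passed it in a second random draw of UMIs (-0.68), and Eomes passed it without cells holding Lef1 or Dapl1 (-0.68). The median log2 ratio in this gate was -0.26 for the 8 genes and -0.15 for all genes.

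The make-up of this gate also differed between the libraries. Cd4 cells were 7.42% of it in ΔMAC and 16.1% in FL/FL, and Cd8 cells 54.5% and 37.8%. Within Cd4 cells the Foxp3 ratio was 0.796 (0.537 to 1.16), from 39 and 108 UMIs in ΔMAC and FL/FL, and within cells with none of the 3 markers it was 0.571 (0.336 to 0.941). With each subgate given the same weight in both libraries, the log2 ratio of Foxp3 was -0.77, past the rule, and that of Ikzf2 -0.41, inside it. Ikzf2 also fell inside the rule in thinned cells (-0.48) and as a mean of the cells' own CPM (-0.58). Ikzf2 was lower within Cd4 cells (ratio 0.522, 0.416 to 0.650) and within Cd8 cells (0.595, 0.500 to 0.708), while the ratio in cells with none of the 3 was 1.03 (0.917 to 1.15). Neutrophil marker transcripts summed to 2214 CPM in ΔMAC and 1682 CPM in FL/FL in this gate and monocyte markers to 132 CPM and 653 CPM, and their part in these ratios was not tested.

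With the 2 Cd3+ gates pooled, Foxp3 at 0.401 (0.303 to 0.526) and Gata3 at 0.645 (0.592 to 0.701) were past the rule and lower in ΔMAC, where 14.6% of 12341 genes were as far lower and 4.18% as far higher, and Ikzf2 at 0.683 (0.642 to 0.725) was inside it. With the 2 NKm+ gates pooled, Foxp3 alone was past it, at 0.499 (0.180 to 1.21) from 7 ΔMAC and 22 FL/FL UMIs, where 11.2% of genes were as far lower and 4.27% as far higher. Its interval includes 1.

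Taken singly, the Cd3- NKm+ and Cd3+ NKm+ gates had no member past the rule. In Cd3- NKm+ cells, where 4.12% of 11738 genes were as far higher and 9.81% as far lower, the ratios of the 7 genes with enough UMIs ran from 0.935 for Eomes to 1.27 (1.18 to 1.37) for Ikzf2. In Cd3+ NKm+ cells, where the shares were 5.36% and 13.1% of 10602 genes, Rora came closest at 1.45 (1.32 to 1.59) and Gata3 was at 0.706 (0.606 to 0.821). Several settings carried members of the Cd3+ NKm+ gate past the rule. Rora, at a log2 ratio of 0.54, stood at 0.65 with a gate at 2 UMIs, at 0.63 with scaling by the median gene ratio and at 0.65 in thinned cells, but at 0.53 in a second random draw of UMIs. It was also past the rule with pooled subgate weights (0.61), without cells holding genes of other cell types (0.59) and without cells holding Lef1 or Dapl1 (0.72). Gata3, at -0.50, passed it as a mean of the cells' own CPM (-0.67), without Lef1 or Dapl1 (-0.65) and in the second draw (-0.71), and Eomes, at 0.32, passed it with the cells' own CPM (0.62) and in the second draw (0.73). Zbtb16, at -0.26, stood at 0.60 in thinned cells and at -0.48 in the second draw, and Foxp3, with 7 ΔMAC and 20 FL/FL UMIs at -0.37, stood at -0.62 without doublet removal and at 2.31 without Lef1 or Dapl1, where its UMIs were below the minimum of 20. The median log2 ratio of the members was 0.10 in each of these gates, against -0.08 and -0.10 for all genes. Monocyte marker transcripts summed to 253 CPM in ΔMAC and 680 CPM in FL/FL in Cd3- NKm+ cells and 163 CPM and 443 CPM in Cd3+ NKm+ cells. Their part in these ratios was not tested.

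The rule was also applied to 25 other lymphoid transcription factors. Of these, in Cd3- NKm+ cells, 0 were higher and 2 of 24 lower, Id3 at 0.497 and Ikzf4 at 0.197, and Ikzf4 rests on 3 ΔMAC and 21 FL/FL UMIs, beside 9.81% of all genes as far lower. Id3 had 446 UMIs in 167 of 1957 ΔMAC cells and 1238 UMIs in 247 of 2565 FL/FL cells. Its highest cell held 24 UMIs in ΔMAC and 124 in FL/FL, so a few cells weigh on its ratio. For Cd3+ NKm+ cells Irf4 was higher at 1.56 (1.09 to 2.21), and 3 of 25 were lower, Ikzf4, Zbtb7b and Zfp683, of which Ikzf4 and Zfp683 had intervals that include 1, beside 5.36% of all genes higher and 13.1% lower. In Cd3+ NKm- cells 4 of 24 were lower, of which Ikzf4 at 0.274, Zeb2 at 0.433 and Prdm1 at 0.502 were farthest, beside 13.2% of all genes as far lower.

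Genes listed beside Rora that were past the rule and higher in ΔMAC in Cd3+ NKm+ cells, as were 5.36% of all genes, included Il23r, Il17a, Il7r and Ccr6, though the interval of Ccr6, 1.87 (0.897 to 3.83), includes 1. Il17a had 121 ΔMAC UMIs and 12 FL/FL UMIs, but 84 of the ΔMAC UMIs came from 1 cell, and Il7r was at 934 CPM in ΔMAC and 560 CPM in FL/FL. In Cd3+ NKm- cells 5 of the 7 genes listed beside Foxp3 were past the rule and lower in ΔMAC, as were 13.2% of all 11757 genes, among them Ctla4 at 76.2 CPM in ΔMAC and 118 CPM in FL/FL and Tnfrsf4 at 12.4 CPM and 54.8 CPM. Ccl5, a chemokine of effector T cells, was at 1450 CPM in ΔMAC and 3014 CPM in FL/FL in that gate. It was the only 1 of the 5 genes listed beside Runx3 past the rule there. The median log2 ratio of those 5 was 0.31, against -0.15 for all genes, of which 13.2% were as far lower. Il4, a type 2 cytokine, had 27 ΔMAC UMIs in 17 Cd3+ NKm+ cells and 223 FL/FL UMIs in 115 cells, a ratio of 0.268 (0.173 to 0.401). Of the 5 genes listed beside Gata3 and Zbtb16 with enough UMIs there, 2 were lower and 1, Il18r1, was higher in ΔMAC. The other lower gene, Il13, rests on 8 ΔMAC and 27 FL/FL UMIs. Of all genes in that gate, 13.1% were as far lower and 5.36% as far higher.

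Genes with the most similar level profile were named over 32 profiles (16 subgates in both libraries), as a description without a test. The 16 included B cells, plasmacytoid and conventional dendritic cells, neutrophils, Kupffer cells and monocytes or macrophages. The r values were thus not read within lymphoid cells alone. Tbx21 was most like Ppm1j, Fasl and Ifng (Pearson r 0.955, 0.948 and 0.942), and Eomes most like Ctla2a, Klra7 and Nkg7 (0.895, 0.889 and 0.887). Rora was closest to Cbarp (0.934), Gata3 to Thy1 (0.947), Foxp3 to Penk (0.912), Ikzf2 to Rora (0.932), Runx3 to Ngfrap1 (0.934) and Zbtb16 to Cwc25 (0.882). The subgates of a library share its depth and cells.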

How the data were processed

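Raw UMI counts per gene and cell barcode were deposited by the authors. Per the file headers they came from Cell Ranger 6.0.0, and the submitters' processing notes name build mm10 and Seurat 4.3.0. No source used here says which droplets were dropped before deposition. Barcodes needed 300 or more detected genes and a mitochondrial share below 20%, which 72 ΔMAC and 64 FL/FL barcodes failed. Doublets were removed with Scrublet in scanpy 1.11.5 (expected rate 0.08; 328 ΔMAC and 480 FL/FL barcodes). Counts were summed per gate and library and given as CPM with exact Poisson intervals, ratios carry exact conditional intervals and shares exact Clopper-Pearson intervals, all at 95%. Shares were read after thinning each cell to 2000 UMIs in 1 random draw, which was taken after the results of an earlier draw had been seen. A gene passed the rule at 1.5-fold, given 20 or more UMIs in the 2 libraries together, and a count of 0 was bounded at 3 UMIs. The code was tested on simulated data. Matplotlib 3.10.9, pandas 2.3.3, anndata 0.12.19, scipy 1.17.1 and numpy 2.4.6 ran under Python 3.11.15.

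Trdc was not analysed here, so Cd163l1, chosen after the data were seen, defines the γδ subgate. The 8 genes and the lists were chosen with earlier results of these data known. Named genes were all 8 members in every gate, up to 3 other factors farthest each way, fixed partner genes, and the 3 genes of highest Pearson r over subgates of at least 50 cells (log2 of CPM + 1, genes with at least 200 UMIs). Partner genes were named from those lists as examples chosen after their values were seen. One gene of the lists is not reported here. Free RNA was not subtracted. Alternatives were no doublet removal, other cell filters, a gate at 2 UMIs, thinned cells, the mean of the cells' own CPM, cells without other cell types' genes, pooled subgate weights, median-ratio scaling, another fold, no UMI minimum and a second random draw.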

Additional observations from a re-analysis of the deposited data

Results flagged for a closer look

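For 4 members the ratio of ΔMAC over FL/FL had opposite signs in different gates, with 95% counting intervals clear of a ratio of 1 on both sides; the difference between gates was not tested, and there is 1 library per genotype. Tbx21 had a log2 ratio of 0.24 in Cd3- NKm+ cells and -0.37 in Cd3+ NKm- cells. Eomes had 0.32 in Cd3+ NKm+ cells and -0.10 in Cd3- NKm+ cells. Rora had 0.18 in Cd3- NKm+ cells and 0.54 in Cd3+ NKm+ cells, against -0.15 in Cd3+ NKm- cells. Ikzf2 had 0.35 in Cd3- NKm+ cells and -0.75 in Cd3+ NKm- cells. Of these values, that of Ikzf2 in Cd3+ NKm- cells was past 1.5-fold. The median log2 ratio of all genes was -0.15 in Cd3+ NKm- cells and -0.08 in Cd3- NKm+ cells. The Rora value of -0.15 and the Eomes value of -0.10 lie near these medians. Rora in Cd3+ NKm- cells also changed sign under some of the settings given below.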

How the results depend on the processing

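No paired analysis was possible because each genotype has 1 library, and no replicate could be left out. The median log2 ratio of all genes was -0.08 in Cd3- NKm+, -0.10 in Cd3+ NKm+ and -0.15 in Cd3+ NKm- cells. Members past 1.5-fold numbered 0 in Cd3- NKm+ cells, and 1 without a UMI minimum. That 1 was Foxp3, with 0 ΔMAC and 2 FL/FL UMIs, and its call rests on the bound of 3 UMIs put in place of the 0. In Cd3+ NKm+ cells they numbered 0, but 1 without doublet removal, with a gate at 2 UMIs, without cells holding B, neutrophil, monocyte or plasmacytoid genes, with pooled subgate weights and with median-ratio scaling. There were 2 in thinned cells, in a second random draw, with the cells' own CPM and without Lef1 or Dapl1 (Rora and Gata3; Foxp3 had too few UMIs there to count); the second draw and the last setting were chosen after seeing the data. In Cd3+ NKm- cells they numbered 2, but 1 in thinned cells, with the cells' own CPM, with pooled subgate weights and at 2-fold, and 3 without doublet removal, with a gate at 2 UMIs, without cells holding other types' genes and without Lef1 or Dapl1. Between Cd3- NKm+ and Cd3+ NKm- cells of ΔMAC they numbered 7, and 4 at 2-fold. For FL/FL 3 were higher and 2 lower, and those past 2-fold were Tbx21, Eomes, Zbtb16 and Foxp3. The share of all genes past the fold was read for the reported setting alone. Counts under the other settings therefore have no such share beside them.

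The log2 ratios below left their counting interval. In Cd3+ NKm- cells, pooled subgate weights gave -0.77 for Foxp3 (-1.63 as reported), -0.41 for Ikzf2 (-0.75), -0.42 for Eomes, 0.15 for Rora, -0.33 for Gata3, 0.23 for Zbtb16 and -0.031 for Runx3. Thinned cells there gave -0.48 for Ikzf2, -0.39 for Eomes and -0.056 for Rora, and the second draw gave -0.49 for Ikzf2, -0.35 for Eomes and -0.68 for Tbx21. The cells' own CPM gave -0.58 for Ikzf2, and leaving out cells with other types' genes gave -0.24 for Rora. Median-ratio scaling gave -0.61 for Ikzf2, -0.0033 for Rora and 0.20 for Runx3. Without Lef1 or Dapl1 the values were -0.62 for Ikzf2, -0.68 for Eomes, 0.31 for Rora, -0.17 for Gata3 and 0.55 for Zbtb16.

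In Cd3+ NKm+ cells, Eomes was at 0.62 with the cells' own CPM and 0.73 in the second draw. Tbx21 was at -0.19 and Ikzf2 at 0.34 in that draw, Zbtb16 at 0.60 in thinned cells, and Rora at 0.72 and Foxp3 at 2.31 without Lef1 or Dapl1. In Cd3- NKm+ cells, Zbtb16 was at 0.33 in thinned cells, Ikzf2 at 0.19 and Runx3 at 0.0046 in the second draw, Rora at 0.26 and Runx3 at 0.19 with scaling, and Eomes at -0.20 without Lef1 or Dapl1. The weights fix the subgate mix by construction; for the other settings the cause was not tested. In all, 216 of 252 log2 ratios, 101 of 110 percents and 96 of 128 pairs stayed within the counting interval of the reported value. Foxp3 and Ikzf2 in Cd3+ NKm- cells, past the rule as reported, kept their sign under every setting run, while Foxp3 and Zbtb16 in Cd3+ NKm+ cells did not. Among the others whose sign changed were Rora and Runx3 in Cd3+ NKm- cells, Tbx21 in Cd3+ NKm+ cells and Zbtb16 in Cd3- NKm+ cells. Shares below about 1% lie near the B cell background.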
